A study of Homo sapiens with 24 samples.

Results

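Translation initiation and elongation factor genes were taken as all genes whose symbol begins with EIF or EEF and that had a probe set of their own on the array, leaving out the eIF2 kinases EIF2AK1 to EIF2AK4 and the subunit EIF2S1. This rule found 58 of 19775 genes with such a probe set. Each gene was represented by its brightest probe set, and 54 of the 58 (of 10661 genes in all) reached a log2 value of 4 on at least 3 arrays and were tested. The samples were RNA of 4 established T-ALL (human T-cell acute lymphoblastic leukaemia) lines after 16 h of NVS-ZP7-3 or of DMSO, its solvent. The treated groups were TALL-1, RPMI-8402, P12-ICHIKAWA and SUPT11 with NVS-ZP7-3, and the controls were the same lines with DMSO. There were 3 arrays in each of the 8 groups, 24 in all. DMSO was at 0.5% in every group. NVS-ZP7 compounds are known as inhibitors of SLC39A7 (ZIP7), a zinc transporter of the endoplasmic reticulum; the labels give neither target nor dose. They also leave unsaid whether the 3 samples of a group grew apart, and the spread behind each p-value may therefore be technical. Each line is a single established culture, and these are bulk RNA samples, in which fewer cells and less RNA per cell cannot be told apart.

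Translation of most mRNAs begins when the cap-binding complex eIF4F (the cap-binding protein eIF4E, the scaffold eIF4G and the helicase eIF4A) recruits the small ribosomal subunit, which carries eIF1, eIF1A, eIF3 and the eIF2 complex with the initiator tRNA. eIF2 needs its exchange factor eIF2B to be recharged with GTP, and phosphorylation of eIF2 under stress blocks eIF2B, which lowers overall initiation and favours translation of a few mRNAs such as that of ATF4. The eIF4E-binding proteins hold eIF4E away from eIF4G unless the kinase mTORC1 phosphorylates them, and EIF4EBP1 is a known ATF4 target gene. eEF1A and eEF2 then drive elongation, and the kinase eEF2K inhibits eEF2. Arrays measure RNA levels only, so none of the values below is a measure of phosphorylation, of protein or of translation rate.

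All values are on the deposited log2 scale, on which a difference of 1 is a 2-fold change and undetected probe sets lie at a floor of 2.18. A gene was called higher or lower in treated cells at a limma adjusted p below 0.05, with the Benjamini-Hochberg adjustment over all 10661 genes and 1 fit to all 24 arrays. Levels of different genes come from different probe sets and are not compared with each other. Arrays of a group correlated at 0.993 to 0.998 across genes, which are not independent replicates. The T-cell marker CD3D lay between 14.1 and 14.9 on every array, and CD3E, CD3G and LCK were at 11.94 or more. Other T-cell markers were low in some lines. CD5 did not exceed 2.61 in TALL-1, CD7 was at 4.48 to 5.45 in RPMI-8402, and PTCRA at 3.935 to 4.065 in SUPT11 and RPMI-8402. Of the markers of other cell types, MS4A1, CD22, CD14, CSF1R, COL1A2, EPCAM and KRT8 did not exceed 2.27 on any array. Others of those markers were present: CD79A at 7.92 to 8.30 in P12-ICHIKAWA, COL1A1 at 6.68 to 7.88 in RPMI-8402, LYZ at up to 12.54, and S100A8 and S100A9 at up to 9.62 and 4.04. ALAS2, another such marker, was at 6.41 on RPMI-8402 DMSO replicate 3 and at the floor on all others. 3 arrays carried transcripts that were at the floor on the other arrays of their line (TALL-1 NVS-ZP7-3 replicate 2, SUPT11 NVS-ZP7-3 replicate 2 and RPMI-8402 DMSO replicate 3), and the red-cell gene HBB ranged between 2.18 and 14.7 over the arrays. HBB was at 11.45, 8.17 and 7.96 in treated P12-ICHIKAWA, against 2.18, 2.29 and 2.18 with DMSO; its part in the results was not tested. For ACTB, 3′ probe sets exceed 5′ ones more as RNA is less intact, and this gap was wider in treated than in DMSO cells by 0.49 in TALL-1 and 0.30 in RPMI-8402, beside 0.05 in SUPT11 and 0.04 in P12-ICHIKAWA; its part in the results was not tested beyond its use as a covariate.

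Most calls among the factor genes came in TALL-1 and RPMI-8402, and most changes were small. In TALL-1, 21 of the 54 members were called higher and 7 lower, beside 22.3% and 19.6% of all tested genes. The 21 include the noncoding gene EIF2AK3-AS1, which passed the filter through treated TALL-1 alone. In RPMI-8402, 8 were higher and 14 lower, beside 15.1% and 21.5% of all tested genes. SUPT11 had 1 higher and 0 lower (1.18% and 0.582% of all genes), and P12-ICHIKAWA had 1 higher and 0 lower (4.91% and 2.98% of all genes). As shares of the 54 members the rises were 38.9% in TALL-1 and 14.8% in RPMI-8402 and the falls in RPMI-8402 25.9%, so that the share in RPMI-8402 lay near that of all genes in both directions.

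The changes of the protein-coding members stayed within 0.5 of 0 in 47 of 51 genes in TALL-1, 48 of 51 in RPMI-8402, 50 of 51 in SUPT11 and 51 of 51 in P12-ICHIKAWA. The median size of change, regardless of sign, was 0.15 for the 54 members in TALL-1 beside 0.20 for all genes, and 0.14 beside 0.18 in RPMI-8402. In SUPT11 it was 0.07 beside 0.06, and in P12-ICHIKAWA 0.09 beside 0.09. Centring each array on its median left 13 members higher and 11 lower in TALL-1, so that the balance of directions there depended on the scaling, while none of the main calls in that line changed sign. With the ACTB difference as a covariate the counts were 11 higher and 4 lower in TALL-1 and 4 higher and 10 lower in RPMI-8402. Without the 3 arrays with foreign transcripts they were 15 higher and 5 lower in TALL-1 and 6 higher and 12 lower in RPMI-8402. Shares over all tested genes are not given for these settings, so whether other genes lost calls alike is not shown.

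**Figure D1:**
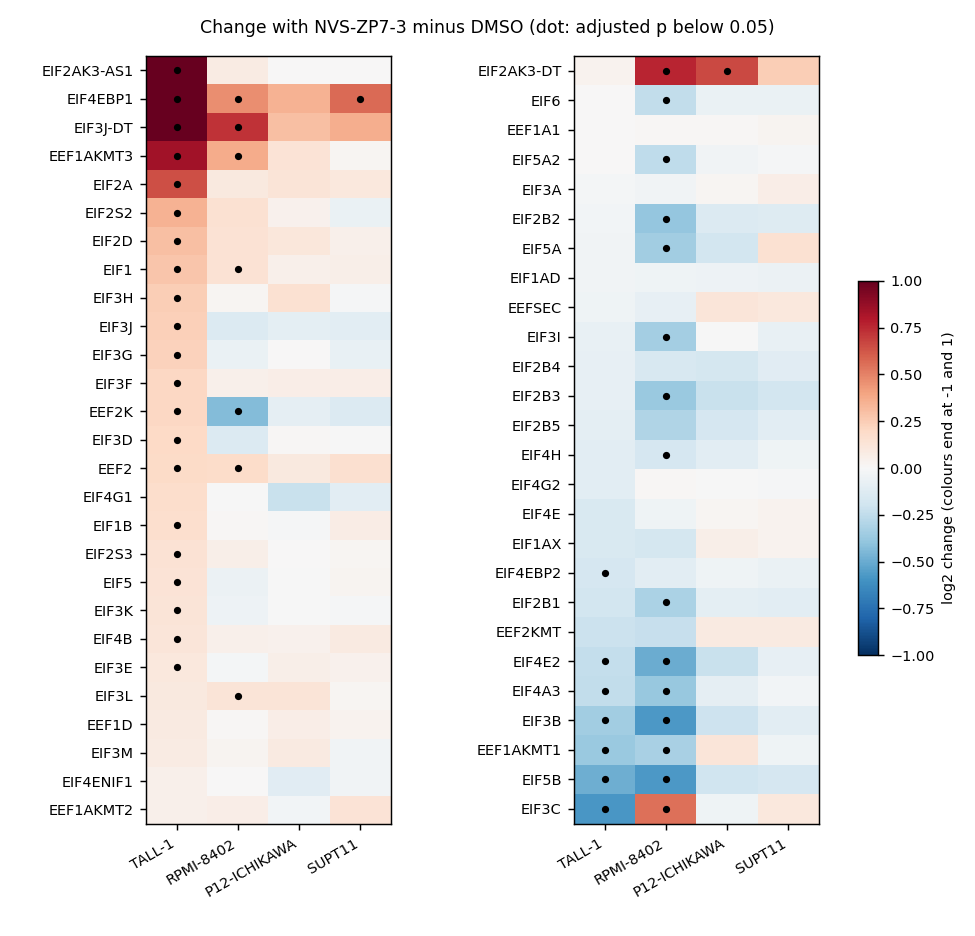
Heat map of the log2 change (NVS-ZP7-3 minus DMSO, 3 arrays each) of the tested members in the 4 lines, without 1 Y-linked gene, ordered by the change in TALL-1, with a dot where the adjusted p was below 0.05; colours end at -1 and 1. Dots fill much of the TALL-1 and RPMI-8402 columns, and the SUPT11 and P12-ICHIKAWA columns hold 1 dot each.

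The repressor EIF4EBP1 (4E-BP1), which binds eIF4E and blocks cap-dependent initiation, was the member called higher in the most lines. In TALL-1 its log2 values were 11.30, 11.28 and 11.39 with NVS-ZP7-3, against 9.49, 9.21 and 9.33 with DMSO. In RPMI-8402 they were 11.83, 11.66 and 11.73 with NVS-ZP7-3, against 11.17, 11.40 and 11.25 with DMSO. In neither line did the treated and DMSO arrays overlap. In SUPT11 they were 8.64, 8.44 and 8.60 with NVS-ZP7-3, against 8.07, 7.90 and 8.01 with DMSO, again without overlap. In P12-ICHIKAWA they were 7.54, 7.70 and 7.34 with NVS-ZP7-3, against 7.34, 7.35 and 6.85 with DMSO, and here the lowest treated array lay among the DMSO arrays.

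The EIF4EBP1 change was 1.98 ± 0.12 (SE, n = 3 each) in TALL-1, with a limma adjusted p of 1.94e-10. It was 0.56 ± 0.12 in SUPT11 (limma adjusted p = 0.0121) and 0.47 ± 0.12 in RPMI-8402 (limma adjusted p = 0.00385). In P12-ICHIKAWA it was 0.34 ± 0.12 and was not called (limma adjusted p = 0.0835). The EIF4EBP1 change in SUPT11 lost its call when 1 of several arrays was left out: without DMSO replicate 2, NVS-ZP7-3 replicate 1 or NVS-ZP7-3 replicate 3 the limma adjusted p was 0.0607, 0.0550 and 0.0541. The RPMI-8402 change was 0.38 with the ACTB difference as a covariate, with a limma adjusted p of 0.0622. EIF4EBP1 was the 1 member called higher in at least 3 lines, a class that held 2.73% of all tested genes, and 0 members were lower in at least 3 lines, beside 1.48%.

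The size of the EIF4EBP1 change differed among the lines (limma interaction adjusted p = 7.96e-07). The change in TALL-1 exceeded the mean of the changes in the other 3 lines by 1.52 ± 0.13 (limma adjusted p = 1.43e-07). The DMSO level followed another order, with 11.27 in RPMI-8402, 9.34 in TALL-1, 7.99 in SUPT11 and 7.18 in P12-ICHIKAWA. Each neighbouring pair in that order differed, by 1.93, 1.35 and 0.81, and the largest adjusted p of the 3 limma contrasts was 3.52e-06. With NVS-ZP7-3 the means were 11.74 in RPMI-8402, 11.32 in TALL-1, 8.56 in SUPT11 and 7.53 in P12-ICHIKAWA.

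The other binding proteins did not follow EIF4EBP1. EIF4EBP2, a second repressor of eIF4E, was at 13.80, 13.95 and 14.03 in treated TALL-1 against 14.05, 14.15 and 14.10 with DMSO, a change of -0.17 ± 0.05 (limma adjusted p = 0.00888). It was not called in the other lines, where its changes were -0.11 in RPMI-8402, -0.07 in SUPT11 and -0.05 in P12-ICHIKAWA. Its dimmer probe sets had changes of -0.65 to -0.28 in TALL-1 and -0.46 to -0.05 in RPMI-8402. In P12-ICHIKAWA they ran between -0.18 and -0.13 and in SUPT11 between -0.10 and -0.03. Without NVS-ZP7-3 replicate 1 of TALL-1 the EIF4EBP2 change there was -0.11 and the call was lost (limma adjusted p = 0.0721). The ACTB covariate also ended that call. EIF4ENIF1, which carries eIF4E into the nucleus and to silent mRNA, was called in no line and had a change of 0.05 in TALL-1. EIF4EBP3 had a probe set shared with another gene only and was not tested.

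**Figure D2:**
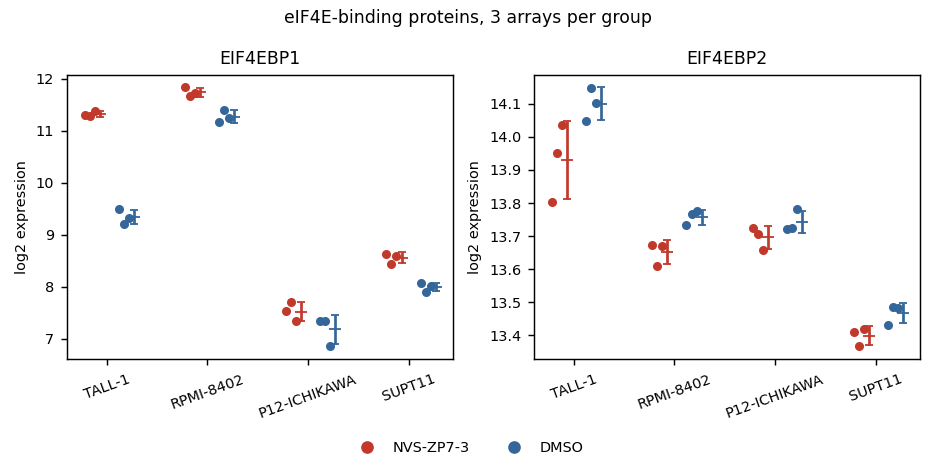
Log2 expression of EIF4EBP1 (left) and EIF4EBP2 (right) on each array by line, with NVS-ZP7-3 in red left of DMSO in blue; points are arrays and bars are the mean ± SD of 3. For EIF4EBP1 the TALL-1 groups stand farthest apart (11.32 treated, 9.34 DMSO), and for EIF4EBP2 the treated groups sit at or below the DMSO groups.

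The 5 subunits of eIF2B, the exchange factor that recharges eIF2, had negative changes in every line on their brightest probe sets, 20 of 20. The 5 signs of a line come from the same arrays, and the share of all genes with such signs is not given. The median change over all tested genes was -0.02 in RPMI-8402. There, 3 subunits were called lower, beside 21.5% of all tested genes. EIF2B1, EIF2B2 and EIF2B3 encode the alpha, beta and gamma subunits. EIF2B1 was at 11.22, 11.24 and 11.16 in treated RPMI-8402, against 11.48, 11.58 and 11.51 with DMSO. EIF2B2 was at 9.40, 9.37 and 9.62 in treated RPMI-8402, against 9.85, 9.88 and 9.82 with DMSO. EIF2B3 was at 11.37, 11.41 and 11.52 in treated RPMI-8402, against 11.82, 11.83 and 11.77 with DMSO. The treated arrays lay below all DMSO arrays for each of the 3. The share of all genes separated in this way is not given.

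These changes in RPMI-8402 were -0.32 ± 0.09 for EIF2B1 (limma adjusted p = 0.00753), -0.39 ± 0.08 for EIF2B2 (limma adjusted p = 0.0012) and -0.37 ± 0.08 for EIF2B3 (limma adjusted p = 0.00191). EIF2B4 (delta) had a change of -0.16 ± 0.09 and EIF2B5 (epsilon, the catalytic subunit) one of -0.30 ± 0.12, and neither was called (limma adjusted p = 0.167 and 0.0589). Their treated arrays also lay below the DMSO arrays. In TALL-1 the 5 changes ran between -0.18 and -0.03, in SUPT11 between -0.18 and -0.10 and in P12-ICHIKAWA between -0.22 and -0.10, with none called. The other probe set of EIF2B4, about as bright, had a change of 0.04 in TALL-1 and negative ones in the other lines. All 20 signs held under quantile normalization and under median centring, which also called EIF2B5 in RPMI-8402 and EIF2B1 in TALL-1 lower. With the ACTB covariate 2 of the 5 changes in TALL-1 were positive, EIF2B5 was called lower in both TALL-1 and RPMI-8402 (-0.47 and -0.53), and EIF2B3 in RPMI-8402 had a change of -0.23 and was not called (limma adjusted p = 0.0721).

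The changes of the subunits were not shown to differ among the lines. The limma interaction adjusted p was 0.403 for EIF2B1, 0.0942 for EIF2B2, 0.243 for EIF2B3, 0.903 for EIF2B4 and 0.719 for EIF2B5. For EIF2B2 alone the change in RPMI-8402 lay below the mean of the other lines, by -0.29 ± 0.10 (limma adjusted p = 0.0431). The other 4 differences of this kind in RPMI-8402 were also negative, between -0.21 and -0.04, and did not pass.

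**Figure D3:**
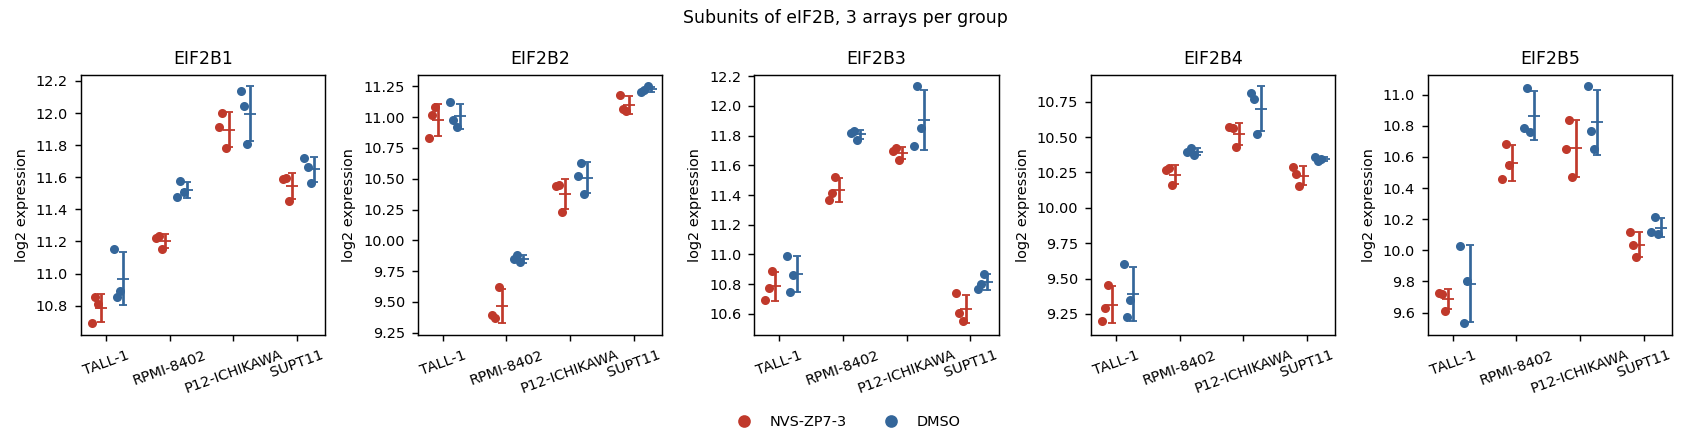
Log2 expression of the 5 eIF2B subunit genes on each array by line, with NVS-ZP7-3 in red left of DMSO in blue; points are arrays and bars are the mean ± SD of 3. In RPMI-8402 the red points lie below the blue points in all 5 panels, and in TALL-1 they overlap in 4 panels.

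Both tested genes of eIF2 itself were called higher in TALL-1, beside 22.3% of all tested genes, and in no other line. EIF2S2, the beta subunit, was at 14.36, 14.39 and 14.38 in treated TALL-1 against 14.11, 13.98 and 13.99 with DMSO, a change of 0.35 ± 0.07 (limma adjusted p = 0.000246). EIF2S3, the gamma subunit that binds GTP, rose by 0.15 ± 0.05 (limma adjusted p = 0.024). In RPMI-8402 the changes were 0.15 for EIF2S2 and 0.06 for EIF2S3, in P12-ICHIKAWA 0.05 and 0.002, and in SUPT11 -0.06 and 0.02. A dimmer EIF2S2 probe set had a change of -0.33 ± 0.12 in SUPT11. The EIF2S2 change differed among lines (limma interaction adjusted p = 0.00904), and the EIF2S3 change was not shown to (0.314). The change in TALL-1 minus that in RPMI-8402 was 0.20 ± 0.09 for EIF2S2 (limma adjusted p = 0.135). For EIF2S3 it was 0.09 ± 0.07 (limma adjusted p = 0.424). TALL-1 was thus not shown to differ from RPMI-8402 in either gene. Median centring and the ACTB covariate each ended the EIF2S3 call in TALL-1, and centring added a call of EIF2S2 in RPMI-8402.

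Among the 8 genes of start codon selection and alternative initiator tRNA delivery, 5 rose and 0 fell in TALL-1. These counts stand beside 22.3% higher and 19.6% lower among all tested genes, and the list median was 0.15. The list had 3 rises after median centring, 4 without the arrays with foreign transcripts and 2, EIF1 and EIF2A, with the ACTB covariate. EIF2A, which can deliver initiator tRNA without eIF2, was at 13.29, 13.15 and 13.02 in treated TALL-1, against 12.55, 12.41 and 12.58 with DMSO. Its change of 0.64 ± 0.07 (limma adjusted p = 3.41e-07) exceeded the mean of the other lines by 0.53 ± 0.08 (limma adjusted p = 4.29e-05). In the other lines the EIF2A change was 0.13 in P12-ICHIKAWA, 0.10 in SUPT11 and 0.10 in RPMI-8402, with none called. EIF2D, a related delivery factor, rose in TALL-1 by 0.30 ± 0.10 (limma adjusted p = 0.0216), a call lost with the ACTB covariate (0.20, limma adjusted p = 0.38) and without the arrays with foreign transcripts (0.30, limma adjusted p = 0.0539).

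EIF1, which guards start codon choice, was at 15.32, 15.34 and 15.34 in treated TALL-1, against 15.07, 15.04 and 15.07 with DMSO. Its change was 0.28 ± 0.03 there (limma adjusted p = 1.71e-06) and 0.14 ± 0.03 in RPMI-8402 (limma adjusted p = 0.00207). EIF1 had 7 probe sets, and its dimmer ones gave changes of 0.31 to 0.80 in TALL-1. EIF1B, a close relative of EIF1, and EIF5, which triggers GTP hydrolysis by eIF2, rose by 0.17 and 0.14 in TALL-1. Median centring and the ACTB covariate each ended both of those calls. EIF1AX and EIF1AD were called in no line on their brightest probe sets. A dimmer EIF1AD set had changes of -0.55 ± 0.14 in TALL-1, -0.33 in RPMI-8402, -0.31 in P12-ICHIKAWA and -0.08 in SUPT11. The dimmer EIF1AX sets had changes of -0.30 to -0.16 in RPMI-8402, beside -0.17 on the brightest. Whether the RNA of these genes changed is thus not settled by their brightest probe sets. The list also holds a Y-linked gene whose level is not given.

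eIF3, the large scaffold between mRNA and the small subunit, had 13 tested subunit genes. In TALL-1, 7 were higher, 2 lower and 4 not called, with a list median of 0.10. Over all tested genes, 22.3% were higher and 19.6% lower in that line. The 7 that rose were EIF3D, EIF3E, EIF3F, EIF3G, EIF3H, EIF3J and EIF3K. They rose by 0.10 to 0.25, the least for EIF3E and the most for EIF3H. In each the treated arrays lay above all DMSO arrays. These 7 were picked as called, and the share of all genes separated in this way is not given. The counts in TALL-1 were 4 higher and 3 lower after median centring, 4 higher and 1 lower with the ACTB covariate, and 3 higher and 1 lower without the arrays with foreign transcripts. In RPMI-8402, 2 subunits were higher and 2 lower, and in SUPT11 and P12-ICHIKAWA none was called among the 13. The RPMI-8402 counts were 0 higher and 3 lower both with the ACTB covariate and without the arrays with foreign transcripts. They were 1 higher and 3 lower with quantile normalization, and 2 higher and 3 lower after median centring.

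EIF3B, a core subunit that contacts the other scaffold proteins, fell in both TALL-1 and RPMI-8402. It was at 10.87, 11.01 and 11.03 in treated RPMI-8402, against 11.48, 11.74 and 11.42 with DMSO, and its change was -0.58 ± 0.11 (limma adjusted p = 0.00057). In TALL-1 it was at 11.14, 11.12 and 11.08 treated, against 11.72, 11.39 and 11.30 with DMSO. That change was -0.35 ± 0.11 (limma adjusted p = 0.0185) and dropped to -0.23 without DMSO replicate 1, with the call lost (limma adjusted p = 0.124), as it also was without NVS-ZP7-3 replicate 3 (-0.33, limma adjusted p = 0.0526). EIF3I, which binds EIF3B, fell by 0.34 ± 0.05 in RPMI-8402 (limma adjusted p = 1.96e-05) and changed by -0.07 in TALL-1.

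EIF3C, another core subunit, fell in TALL-1 while it rose in RPMI-8402. In TALL-1 it was at 6.37, 6.17 and 5.90 treated, against 6.30, 7.19 and 6.68 with DMSO, and the groups overlapped. In RPMI-8402 it was at 6.99, 6.92 and 6.78 treated, against 6.30, 6.43 and 6.30 with DMSO, without overlap. The changes were -0.58 ± 0.19 and 0.55 ± 0.19 in those lines (limma adjusted p = 0.0198 and 0.0296), and they differed by -1.13 ± 0.27 (limma adjusted p = 0.00522). EIF3C has a near-identical copy, EIF3CL, so its values are uncertain. The TALL-1 call was lost without DMSO replicate 2 (change -0.35) or NVS-ZP7-3 replicate 3 (change -0.46). The RPMI-8402 call was lost in 4 of the 6 fits that left out an array of that line, with changes of 0.51 to 0.54. That call was also lost with the ACTB covariate and without the arrays with foreign transcripts.

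The eIF4F group had 7 tested genes, of which 1 was higher and 2 lower in TALL-1 and 3 were lower in RPMI-8402. Over all tested genes, 22.3% were higher and 19.6% lower in TALL-1, and 21.5% were lower in RPMI-8402. EIF4A3, the helicase of the exon junction complex, was at 13.37, 13.40 and 13.40 in treated RPMI-8402, against 13.77, 13.78 and 13.76 with DMSO. It fell there by 0.38 ± 0.04 (limma adjusted p = 1.13e-06) and in TALL-1 by 0.24 ± 0.04 (limma adjusted p = 0.000116). EIF4E2, a cap-binding protein that represses rather than starts translation, was at 11.69, 11.69 and 11.78 in treated RPMI-8402, against 12.19, 12.26 and 12.20 with DMSO. It fell there by 0.49 ± 0.08 (limma adjusted p = 0.000117), and in TALL-1 by 0.23 with overlapping arrays, a call that was lost without any one of 4 arrays. EIF4H, which assists the helicase, fell by 0.17 in RPMI-8402, and EIF4B, another helper, rose by 0.12 in TALL-1, a call lost after median centring, with the ACTB covariate and without the arrays with foreign transcripts.

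The genes of the cap-binding core itself were not called on their brightest probe sets. EIF4E, the cap-binding protein, had changes of -0.15 in TALL-1, -0.04 in RPMI-8402, 0.02 in P12-ICHIKAWA and 0.03 in SUPT11. Dimmer EIF4E probe sets, with means of 13.71 and 12.45, had changes of -0.23 and -0.25 in TALL-1 and -0.06 and -0.23 in RPMI-8402. In P12-ICHIKAWA they had -0.02 and 0.17, and in SUPT11 -0.01 and -0.04. Whether EIF4E RNA changed is thus not settled by its brightest probe set. EIF4G1, the scaffold, had changes of 0.18, -0.003, -0.22 and -0.10 in the same order of lines. None passed, although the EIF4G1 change differed among lines (limma interaction adjusted p = 0.0421). EIF4G2, a scaffold that lacks the eIF4E-binding site, changed by -0.11 in TALL-1 and by at most 0.01 in size in the other lines. The helicase gene EIF4A1 shared its probe sets with other genes, and EIF4A2 was at the floor on its own probe set, so neither was tested.

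Of the 4 tested genes of subunit joining, eIF6 and eIF5A, all were called lower in RPMI-8402, beside 21.5% of all tested genes. The list median was -0.30. EIF5B, the GTPase that joins the ribosomal subunits, fell most. It was at 11.99, 12.03 and 12.02 in treated RPMI-8402 against 12.63, 12.60 and 12.54 with DMSO, and at 11.35, 11.63 and 11.50 in treated TALL-1 against 12.07, 11.99 and 11.86 with DMSO. The changes were -0.58 ± 0.07 in RPMI-8402 (limma adjusted p = 1.76e-06) and -0.49 ± 0.07 in TALL-1 (limma adjusted p = 9.36e-06). In SUPT11 and P12-ICHIKAWA the changes of EIF5B were -0.17 and -0.20, not called, with treated arrays below all DMSO arrays. The change differed among lines (limma interaction adjusted p = 0.00322), and in RPMI-8402 it lay below the mean of the other lines (-0.29 ± 0.08, limma adjusted p = 0.0121). Median centring called EIF5B lower in P12-ICHIKAWA too (-0.19, limma adjusted p = 0.0486).

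EIF6, which keeps the large subunit from joining too early, fell by 0.25 ± 0.06 in RPMI-8402 (limma adjusted p = 0.00255). EIF5A and EIF5A2, the hypusine-bearing factors that help the ribosome past difficult peptides, fell there by 0.35 ± 0.12 and 0.25 ± 0.09 (limma adjusted p = 0.0335 and 0.0278). Of these 4 calls in RPMI-8402, 2 remained after median centring, 2 without the arrays with foreign transcripts and 1 with the ACTB covariate. The EIF5A2 call was also lost in 4 of the 6 fits without an array of that line. In TALL-1 the list had 1 gene lower, EIF5B, and 3 not called. One of these, EIF5A2, was at the floor on all TALL-1 arrays, where no fall can show. The standard error of EIF5A2 in RPMI-8402 is shared with that line and can be too small.

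Of the 4 tested elongation factors, EEF2 was called higher in TALL-1 and RPMI-8402, and the others were called in no line. Over all tested genes, 22.3% and 15.1% were higher in those lines. EEF2, which moves the ribosome along the mRNA, was at 14.56, 14.56 and 14.55 in treated TALL-1 against 14.42, 14.35 and 14.34 with DMSO. It rose by 0.19 ± 0.05 in TALL-1 and 0.18 ± 0.05 in RPMI-8402 (limma adjusted p = 0.00476 and 0.00745), and both calls were lost with the ACTB covariate. EEF1A1, which brings the aminoacyl-tRNA, lay between 15.8 and 16.0 on every array, near the top of the scale, where a change may not show. A dimmer probe set, with a mean of 12.67, had positive changes in every line: 0.45 ± 0.06 in TALL-1, 0.34 ± 0.06 in P12-ICHIKAWA, 0.25 ± 0.06 in SUPT11 and 0.15 ± 0.06 in RPMI-8402 (SE, n = 3 each). Whether EEF1A1 RNA changed is thus not settled by its brightest probe set. EEF1D, an exchange subunit for eEF1A, and EEFSEC, the selenocysteine factor, were called in no line. The dimmer EEF1D probe sets had changes of 0.13 to 0.22 in TALL-1, beside 0.09 on the brightest.

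EEF2K, the kinase that inhibits eEF2, went in opposite directions in TALL-1 and RPMI-8402. It was at 9.12, 9.22 and 9.18 in treated RPMI-8402, against 9.57, 9.58 and 9.65 with DMSO. In TALL-1 it was at 9.45, 9.27 and 9.33 treated, against 9.16, 9.05 and 9.24 with DMSO, and the groups did not overlap in either line. The change was -0.43 ± 0.06 in RPMI-8402 (limma adjusted p = 1.06e-05) and 0.20 ± 0.06 in TALL-1 (limma adjusted p = 0.00808), and the change in TALL-1 minus that in RPMI-8402 was 0.63 ± 0.08 (limma adjusted p = 1.68e-05). The TALL-1 call was lost under both other scalings and with the ACTB covariate, and the RPMI-8402 call was kept under all 3. A dimmer EEF2K probe set changed by 0.04 in TALL-1.

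Of the lysine methyltransferases of eEF1A, EEF1AKMT3 rose and EEF1AKMT1 fell in both TALL-1 and RPMI-8402. EEF1AKMT3 was at 9.93, 10.02 and 9.99 in treated TALL-1, against 9.23, 8.99 and 9.20 with DMSO. Its change was 0.84 ± 0.11 in TALL-1 (limma adjusted p = 3.32e-06) and 0.37 ± 0.11 in RPMI-8402 (limma adjusted p = 0.00977), and 0.02 and 0.14 in SUPT11 and P12-ICHIKAWA, not called. EEF1AKMT1 changed by -0.37 ± 0.10 in TALL-1 and -0.32 ± 0.10 in RPMI-8402 (limma adjusted p = 0.00632 and 0.0171). Both EEF1AKMT1 calls were lost with the ACTB covariate, and the RPMI-8402 call was lost without DMSO replicate 2 or DMSO replicate 3. EEF1AKMT2 and EEF2KMT, which methylates eEF2, were called in no line.

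Seen side by side, TALL-1 and RPMI-8402 shared 5 members called higher (EIF4EBP1, EIF3J-DT, EEF1AKMT3, EIF1 and EEF2) and 5 called lower (EIF5B, EIF3B, EIF4A3, EIF4E2 and EEF1AKMT1). The shared rises are 5 of 21 in TALL-1 and 5 of 8 in RPMI-8402, and the shared falls are 5 of 7 and 5 of 14. The rises are thus 23.8% of those in TALL-1 and 62.5% of those in RPMI-8402, beside 41.8% and 61.7% over all tested genes. The falls are 71.4% and 35.7%, beside 50.1% and 45.7% over all tested genes. In the main fit EEF2K and EIF3C were called in opposite directions, and each lost a call under other settings. Changes differed among the 4 lines in 17 of the 54 members by the interaction test, beside 35.8% of all genes. The 17 include EIF2AK3-AS1, which passed the filter through treated TALL-1 alone.

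**Figure D4:**
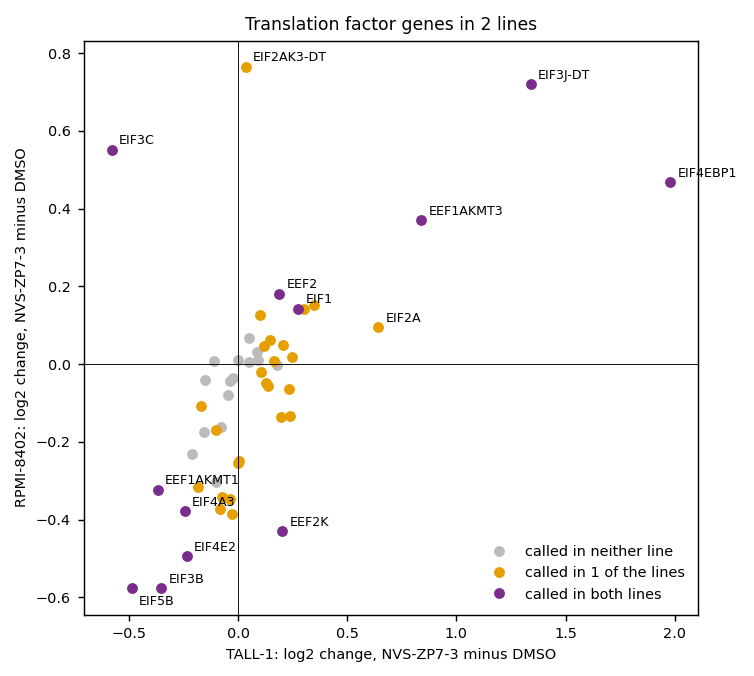
Log2 change (NVS-ZP7-3 minus DMSO) of the tested members in TALL-1 (x axis) and RPMI-8402 (y axis); colours show whether a member was called in neither line, in 1 or in both, and EIF2AK3-AS1, at 3.10 in TALL-1, and 1 Y-linked gene are left out. EIF4EBP1 and EIF3J-DT lie at the upper right, EIF5B, EIF3B, EIF4E2 and EIF4A3 at the lower left, and EEF2K and EIF3C in the other corners.

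The rule also takes in, by symbol, noncoding genes named after their neighbours, and some of these changed by more than most coding members. EIF3J-DT, the divergent transcript that starts beside EIF3J and runs away from it, was at 5.76, 5.49 and 5.31 in treated TALL-1, against 4.17, 4.17 and 4.19 with DMSO. In RPMI-8402 it was at 4.69, 4.76 and 4.42 treated, against 3.78, 3.92 and 4.01 with DMSO. It rose by 1.34 ± 0.14 in TALL-1 and 0.72 ± 0.14 in RPMI-8402 (limma adjusted p = 2.23e-07 and 0.000369), without overlap in either. EIF3J itself, an eIF3-associated factor, had changes of 0.24 and -0.13 in those lines, and the first passed the test (limma adjusted p = 0.00147). The stretch between the starts of the pair is shown because both genes are read from it in opposite directions. It is written on the strand of EIF3J in lower case, on chromosome 15 of GRCh38.p14 at chr15:44536924-44537146, plus strand, from the RefSeq promoter table, and it lies wholly between both listed starts.
EIF3J-DT to EIF3J: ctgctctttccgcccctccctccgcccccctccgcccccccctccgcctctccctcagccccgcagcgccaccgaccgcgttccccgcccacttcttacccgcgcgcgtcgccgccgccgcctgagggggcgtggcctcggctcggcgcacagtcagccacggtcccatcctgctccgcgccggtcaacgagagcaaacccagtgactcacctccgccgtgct

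EIF2AK3-DT, the divergent transcript beside the gene of the eIF2 kinase PERK, rose in P12-ICHIKAWA and RPMI-8402 and not in TALL-1. It was at 9.55, 9.77 and 9.56 in treated RPMI-8402 against 8.73, 8.89 and 8.95 with DMSO, and at 8.40, 8.62 and 8.65 in treated P12-ICHIKAWA against 7.78, 7.92 and 7.99 with DMSO. The changes were 0.76 ± 0.09 and 0.66 ± 0.09 (limma adjusted p = 4.21e-06 and 0.000157), beside 0.04 in TALL-1 and 0.25 in SUPT11, not called. In the fit of P12-ICHIKAWA arrays alone its limma adjusted p was 0.0510. EIF2AK3 itself rose by 1.20 ± 0.10 in TALL-1 and 1.501 ± 0.105 in RPMI-8402 (limma adjusted p = 3.39e-08 and 1.93e-09), and had changes of 0.34 in P12-ICHIKAWA and 0.35 in SUPT11 that were not called (limma adjusted p = 0.0522 and 0.142). Kinase gene and divergent transcript were both called in RPMI-8402, the kinase gene alone in TALL-1 and the divergent transcript alone in P12-ICHIKAWA.

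EIF2AK3-AS1, an antisense transcript of the same locus, was at 5.68, 5.99 and 5.57 in treated TALL-1 and at 2.84, 2.58 and 2.51 with DMSO. Its values in the other lines did not exceed 2.40, at or near the floor. The change in TALL-1 was 3.10 ± 0.09, but the gene passed the filter through those 3 treated arrays alone, so it had to differ there. With the other lines at or near the floor, this shared standard error can be too small for TALL-1. EIF1B-AS1 lay just outside the filter, at log2 4 or more on 2 arrays, with a highest value of 5.39 in treated SUPT11. Whether these probe sets detect the noncoding transcript alone was not tested.

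Lines differed in the DMSO level of 49 of the 54 members, beside 96.3% of all genes. The 5 that did not pass were EEF1A1, EIF2S2, EIF3E, EIF3G and EIF3J-DT. EIF5A2 had the widest range: it was at the floor of 2.18 on all 6 TALL-1 arrays, treated and DMSO, and its DMSO means were 11.07 in SUPT11, 10.82 in RPMI-8402 and 9.26 in P12-ICHIKAWA. SUPT11 exceeded RPMI-8402 by 0.25 ± 0.09 (limma adjusted p = 0.0145) and RPMI-8402 exceeded P12-ICHIKAWA, where the P12-ICHIKAWA minus RPMI-8402 difference was -1.56 ± 0.09 (limma adjusted p = 6.27e-12). Since a group at the floor has no spread, its standard error, shared over all arrays, can be too small for the lines that express the gene.

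EEF1AKMT1 with DMSO was highest in TALL-1 at 11.79, then in P12-ICHIKAWA at 10.49, RPMI-8402 at 10.09 and SUPT11 at 9.33. EEF1AKMT3 was lowest in SUPT11 at 7.44, below P12-ICHIKAWA at 9.60, RPMI-8402 at 9.14 and TALL-1 at 9.14, and the last pair did not differ beyond its spread (difference -0.003 ± 0.105). EIF2AK3-DT ran down over 9.99 in TALL-1, 9.58 in SUPT11, 8.86 in RPMI-8402 and 7.90 in P12-ICHIKAWA. EIF3C stood at 8.39 in P12-ICHIKAWA and between 6.34 and 6.73 in the other 3 lines, which did not differ from each other (lowest limma adjusted p of the 3 pairs 0.0817).

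**Figure D5:**
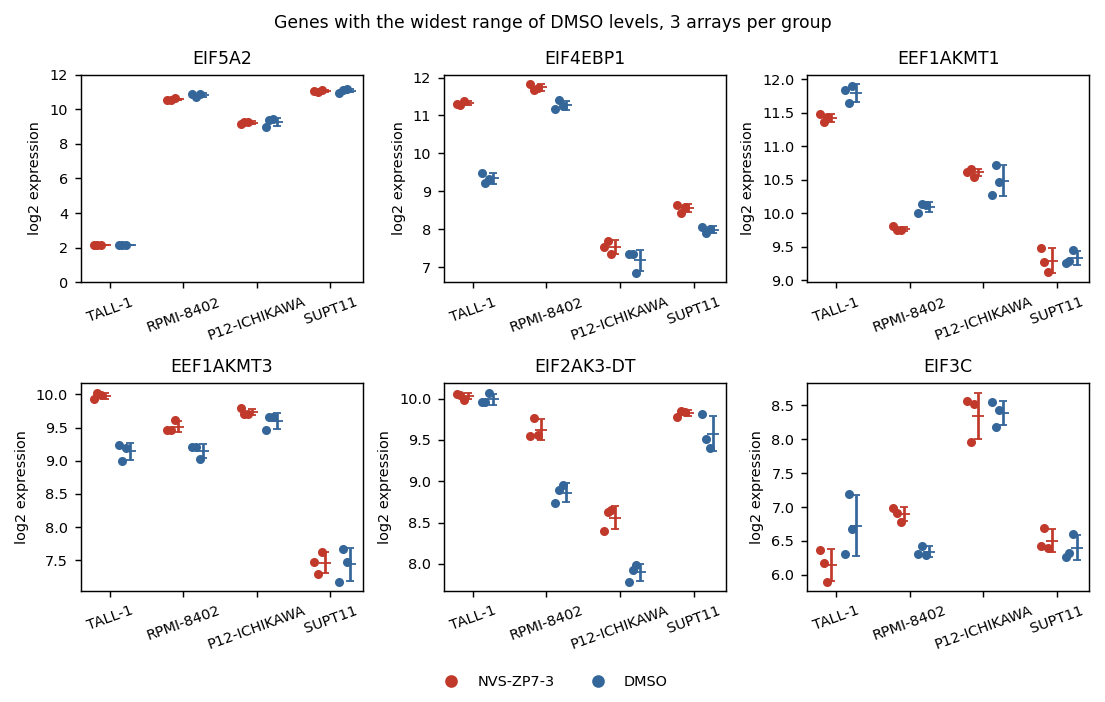
Log2 expression on each array, NVS-ZP7-3 in red left of DMSO in blue, of the 6 members with the widest range of DMSO means among lines; points are arrays and bars are the mean ± SD of 3. EIF5A2 sits at the floor of 2.18 in TALL-1 and between 8.97 and 11.15 in the other lines, and EIF4EBP1 is lowest in P12-ICHIKAWA.

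Promoters were compared for a motif of a factor family known to drive translation genes, the E-box CACGTG bound by MYC and MAX, with the 250 bases before each start in the RefSeq table of GRCh38.p14. The table held 43 of the 54 tested members. CACGTG, which reads the same on both strands, occurred in 12 of the 43, beside 7.73% of 27305 genes in the table. Those 27305 were not filtered by expression as the members were, so the sets are unlike and enrichment was not tested. Among members lower in RPMI-8402 it occurred in 5 of the 13 with an entry, and among those higher in TALL-1 in 5 of 15. A pair of other strings was searched on both strands, TGATGNAA (the core of elements bound by C/EBP-ATF dimers) and TGACGTGG (an element of the unfolded protein response), and 0 of the 43 held either, beside 3.89% and 0.78% of all genes. A match is a run of letters and not a site shown to be bound.

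The 5 stretches below belong to the members lower in RPMI-8402 and are printed to show the E-box, in capitals, with 30 bases on either side. Each is written 5′ to 3′ on the strand of its gene, and each ends before the start of the gene. They lie at chr16:22206189-22206254 (plus) for EEF2K, chr1:44986739-44986804 (minus) for EIF2B3, chr17:80147214-80147279 (minus) for EIF4A3, chr7:74174127-74174192 (plus) for EIF4H and chr3:170908789-170908854 (minus) for EIF5A2, whose stretch holds the motif at 2 places.
EEF2K: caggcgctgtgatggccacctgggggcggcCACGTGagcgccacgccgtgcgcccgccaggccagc
EIF2B3: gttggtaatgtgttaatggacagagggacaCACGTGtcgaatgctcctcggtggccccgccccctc
EIF4A3: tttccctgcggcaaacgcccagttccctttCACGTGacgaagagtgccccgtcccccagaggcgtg
EIF4H: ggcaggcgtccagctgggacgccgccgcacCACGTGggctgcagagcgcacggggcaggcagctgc
EIF5A2: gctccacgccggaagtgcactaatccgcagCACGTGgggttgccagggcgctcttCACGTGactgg

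Of these 5, EIF4A3 also fell in TALL-1 while EEF2K rose there. The remaining members with the motif were EEFSEC, EIF1B, EIF3F, EIF3K, EIF4B, EIF4E and EIF4G1, of which 4 (EIF1B, EIF3F, EIF3K and EIF4B) were higher in TALL-1. The motif was thus present among members that rose and among members that fell.

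Genes that work with these factors were described from 5 further lists. Their counts stand beside 22.3% higher and 19.6% lower of all tested genes in TALL-1. The shares were 15.1% and 21.5% in RPMI-8402, 4.91% and 2.98% in P12-ICHIKAWA, and 1.18% and 0.582% in SUPT11. Of 12 tested regulators of eIF4F and mTORC1, 1 was higher and 2 lower in TALL-1, and 1 higher and 1 lower in RPMI-8402. PAIP2B, which withholds the poly(A)-binding protein from initiation, was at 9.76, 9.63 and 9.57 in treated TALL-1, against 7.69, 6.96 and 7.76 with DMSO. It rose by 2.18 ± 0.15 in TALL-1 and 0.81 ± 0.15 in RPMI-8402 (limma adjusted p = 1.27e-09 and 0.000297). MTOR fell by 0.26 in TALL-1 with overlapping arrays, the helicase gene DDX3X fell there by 0.27, and RPTOR, the mTORC1 scaffold, fell by 0.88 in RPMI-8402.

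Of 9 tested termination and recycling genes, 1 was higher and 2 lower in TALL-1 and 4 were lower in RPMI-8402. GSPT1 (the release factor eRF3a) and ABCE1 (the recycling ATPase) fell in both lines, by 0.25 and 0.20 in TALL-1 and by 0.32 and 0.22 in RPMI-8402. DHX29, an initiation helicase, rose by 0.22 in TALL-1, and PELO, a rescue factor, fell by 0.30 in RPMI-8402.

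Of 8 enzymes that make hypusine on eIF5A and diphthamide on eEF2, 2 were higher and 2 lower in TALL-1, 1 higher and 1 lower in P12-ICHIKAWA, and 4 lower in RPMI-8402. The diphthamide genes DPH2 and DPH6 fell by 0.53 and 0.73 in TALL-1 and by 0.68 and 0.97 in RPMI-8402. DPH5 and DNAJC24 of the same pathway rose by 0.58 and 0.56 in TALL-1, and DPH5 rose by 0.30 in P12-ICHIKAWA. Of 9 mitochondrial translation factors, 2 were higher in TALL-1 and 2 lower in RPMI-8402. MRRF, the mitochondrial recycling factor, was called in both, higher by 0.35 in TALL-1 and lower in RPMI-8402, where its change was -0.53.

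The stress genes ATF4, DDIT3 and TRIB3 were set beside the members because EIF4EBP1 is a known target of ATF4. DDIT3 rose in all 4 lines, most in RPMI-8402 (4.56) and TALL-1 (3.28) and least in P12-ICHIKAWA (2.71) and SUPT11 (2.51). ATF4 rose by 0.55 in TALL-1, by 0.53 in RPMI-8402 and by 0.20 in P12-ICHIKAWA, and had a change of 0.11 in SUPT11 that was not called. TRIB3 rose by 4.45 in TALL-1, by 4.44 in RPMI-8402 and by 2.14 in P12-ICHIKAWA, while its change in SUPT11 was 0.12. ASNS, a further ATF4 target, was called in no line. Its changes were 1.14 in P12-ICHIKAWA, 0.79 in RPMI-8402, 0.18 in SUPT11 and -0.70 in TALL-1, each ± 0.36. In P12-ICHIKAWA and SUPT11 the treated arrays lay above all DMSO arrays. The standard error is shared over the lines, whose spread was unlike (SD 0.93 in treated TALL-1, 0.01 in treated SUPT11). The lack of a call thus does not show that ASNS was unchanged. Beside these values the EIF4EBP1 change was 1.98 in TALL-1 and 0.47 in RPMI-8402, a difference of 1.51 ± 0.17 (limma adjusted p = 2.26e-06).

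The size of a change also depended on the probe set. Of the called members, 38 dimmer probe sets in TALL-1 and 24 in RPMI-8402 could be set beside the brightest one, and all of them changed in the same direction. In 32 of the 38 and 16 of the 24 the dimmer set changed more. For EIF2S2 in TALL-1 the dimmer set gave 0.85 beside 0.35, for EIF3F 0.62 beside 0.21 and for EIF4EBP2 up to -0.65 beside -0.17. EIF4EBP1, EIF2A, EIF4A3 and EEF1AKMT3 each had 1 probe set.

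The other untested members were EEF1A2 and EIF4E3, at or near the floor with highest values of 2.25 and 2.76. EEF1B2, EEF1G, EIF3CL, EIF4A1, EIF4EBP3 and EEF1E1-BLOC1S5 were named only by probe sets shared with other genes, and are not analysed here.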

How the data were processed

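RNA was isolated with a Qiagen RNeasy kit and labelled with biotin for Affymetrix 3' arrays, per the labels' protocols. The deposited values are log2 signals of 54675 probe sets on 24 arrays. GCRMA and limma are named, with no settings, in the submitters' processing notes. GCRMA corrects background, normalizes between arrays and summarises probes, which leaves undetected sets at a floor. Arrays have no read depth, so precision is set by how many there are and by how far a signal stands above the floor.

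Gene names came from GEO's platform annotation, with symbols updated by gene identifier (41043 of 41097 single-gene sets matched RefSeq, GRCh38.p14); 1801 sets with several genes and 11777 with none were left out. A model of 8 group means was fitted with limma 3.58.1 in R 4.3.3 (lmFit, eBayes), with contrasts per line and F tests among lines, and all p-values adjusted by Benjamini-Hochberg over 10661 genes. The fit was tested on simulated data. Pandas 2.3.3 in Python 3.11.15 handled the tables. Promoter bases came from RefSeq.

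The members and gene lists were chosen with earlier results of these data known. Genes were named by rule: EIF4EBP1 to EIF4EBP3, the eIF2B subunits, per line the 6 largest called changes without overlap, the 6 widest ranges of change among lines past the interaction test and of DMSO means past the DMSO test, members called alike in 3 or more lines, and up to 4 genes per further list by largest called change. The Y-linked member is counted only. Other members stand for their role in each group and were chosen after their values were seen. Alternatives were other filters, probe-set means, scalings, variance models, fits of a line alone, covariates and leaving out arrays.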

Additional observations from a re-analysis of the deposited data

Results flagged for a closer look

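For 17 members the change with NVS-ZP7-3 against DMSO differed among the 4 lines by limma's interaction test, and the values below are its adjusted p. The lowest was 7.56e-13 for EIF2AK3-AS1, which passed the filter through treated TALL-1 alone and so had to differ there. This value is therefore no evidence of a difference. Next was 7.96e-07 for EIF4EBP1, whose change was largest in TALL-1. EEF2K had 8.15e-05, with a rise in TALL-1 and a fall in RPMI-8402. EIF2A had 0.000295 and EIF3J 0.002, both called higher in TALL-1 alone. EIF4A3 had 0.000521 and EIF5B 0.00322, with the deepest falls in RPMI-8402. EIF2AK3-DT had 0.00077, with its largest rise in RPMI-8402 and a change of 0.04 in TALL-1. EIF3J-DT had 0.000999, EEF1AKMT3 0.00131 and EIF1 0.00243, each with its largest rise in TALL-1. EIF3I had 0.00332, called lower in RPMI-8402 alone, and EIF2S2 0.00904, called higher in TALL-1 alone. EIF3C had 0.0191 with opposite signs in TALL-1 and RPMI-8402, EIF5 had 0.0213, EEF1AKMT1 0.028 and EIF4G1 0.0421. The ACTB 3′ to 5′ difference was higher in treated than in DMSO cells by 0.49 in TALL-1 and 0.30 in RPMI-8402, beside 0.05 in SUPT11 and 0.04 in P12-ICHIKAWA. Its part in these differences was not tested beyond its use as a covariate. Calls lost with that covariate include EEF2K and EIF5 in TALL-1, EIF3C in RPMI-8402 and EEF1AKMT1 in both lines. Calls kept with it include EIF1 and EIF2A in TALL-1 and EEF2K in RPMI-8402.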

How the results depend on the processing

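No called change reversed its sign under any alternative run. The main counts of called members, TALL-1 28, RPMI-8402 22, SUPT11 1 and P12-ICHIKAWA 1, moved by over 1.5 times in these fits. In TALL-1 the count was 18 at an adjusted p below 0.01 and 15 with the ACTB covariate. In RPMI-8402 it was 14 with that covariate, and the EIF4EBP1 change there, 0.38, was not called. In SUPT11 it was 0 at 0.01 and 0 in the fit of that line alone, where the EIF4EBP1 change of 0.56 had a limma adjusted p of 0.107. In P12-ICHIKAWA it was 2 with quantile normalization, 3 with median centring (2 higher, 1 lower) and 2 with an intensity trend. The EIF4EBP1 change there was called with quantile normalization (0.29) and with median centring (0.35). Leaving out each array in turn gave 0 to 2 members in SUPT11 (0 without DMSO replicate 2 or NVS-ZP7-3 replicate 3, 2 without DMSO replicate 1 or NVS-ZP7-3 replicate 2) and 1 to 3 in P12-ICHIKAWA (2 without DMSO replicate 1, 3 without NVS-ZP7-3 replicate 3), with EIF4EBP1 changes of 0.52 to 0.62 and 0.18 to 0.44. Counts over all tested genes in these fits are not given, and the causes were not tested.

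Replicate numbers showed no steady pairing of the samples: correlations of deviations ran between -0.14 and 0.42. In P12-ICHIKAWA all were positive (0.05, 0.04 and 0.42), so pairing in that line is not settled. With the replicate block the counts were 23 in TALL-1, 23 in RPMI-8402, 1 in SUPT11 and 2 in P12-ICHIKAWA, where the EIF4EBP1 change of 0.34 was called.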
